A study of Mus musculus with 15 samples.

Results

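In the Isl1Cre libraries at E8.25, 69 of the 188 cells that passed the gene filter had little of the cardiac troponin T transcript. Most of the 69 carried markers of endoderm or of posterior mesoderm. The members were chosen by their own measured values: a cell was taken if at least 1000 genes were detected in it and its Tnnt2 level was under 2000 CPM, where CPM is a gene's counts scaled to a fixed total per cell. Of the 192 cells of these libraries, 188 had 1000 genes or more, and 33 members came from library 1 and 36 from library 2. The other 119 cells, 61 in library 1 and 58 in library 2, had Tnnt2 at 2000 CPM or more and are called Tnnt2-high cells. The series as a whole holds 1339 such filtered cells of 1400 deposited.

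The members come from mice carrying Isl1Cre and Rosa26tdTomato at embryonic day E8.25. They were compared with the Tnnt2-low cells of mice carrying Isl1Cre and Rosa26tdTomato at E7.75, with the Tnnt2-low cells of mice carrying Nkx2-5Cre and Rosa26tdTomato at E8.25, and with the Tnnt2-high cells of their own libraries. Cre recombinase expressed from either driver switches on the tdTomato reporter in a cell and in its descendants, and the reporter is shared by every group. Each of these groups has 2 libraries whose titles share an embryo number, without saying whether it names an embryo or counts embryos. A stage or a lineage therefore cannot be told apart from the embryos used. A p-value covers no more than how the libraries vary, which may be a technical matter. The labels describe cardiac cells that were FACS-sorted or only treated with trypsin, without saying which was done for which library, so the share of a cell type here depends on the dissection and on any gate.

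Isl1 encodes a LIM-homeodomain factor of second heart field progenitors, which add cells to both ends of the heart tube, and it is also expressed in foregut endoderm and in posterior lateral plate mesoderm, including the hindlimb field. At this stage the foregut pocket lies against the heart-forming mesoderm, while lateral plate, allantois and limb-field mesoderm extend behind it. Hox genes are switched on in the order of their place in the cluster, so genes with higher paralogue numbers mark more posterior mesoderm. Tnnt2 encodes the thin-filament troponin T of heart muscle (GRCm38/mm10 chromosome 1, 135836315 to 135852268).

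Epcam, an adhesion molecule of epithelia (chromosome 17, 87635979 to 87651127), was at 50 CPM or more in 16 of the 69 members, or 23.2% (95% exact Clopper-Pearson interval 13.9% to 34.9%), against 1 of 119 Tnnt2-high cells, or 0.84%. At least 1 of Hoxb6 (chromosome 11, 96292814 to 96301569), Pitx1 (chromosome 13, 55825044 to 55836190) and Cdx4 (chromosome X, 103321398 to 103330224) was at 20 CPM or more in 40 members, or 58.0% (45.5% to 69.8%), against 18 Tnnt2-high cells, or 15.1%. These 3 genes encode transcription factors of posterior mesoderm, of the hindlimb field and of the tail end of the embryo, in that order. Hoxb6 passed the limit in 38 members, Pitx1 in 26 and Cdx4 in 18, and 14 members passed it for all 3 genes. Both kinds of marker were present in 3 members, which are counted below with the Epcam-high members. That leaves 37 posterior-marker members (20 and 17 in libraries 1 and 2), 16 Epcam-high members (6 and 10) and 16 members with neither (7 and 9), so the name of mesoderm and endoderm rests on markers for 53 of the 69 cells. Intervals here cover counting error only.

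**Figure D1:**
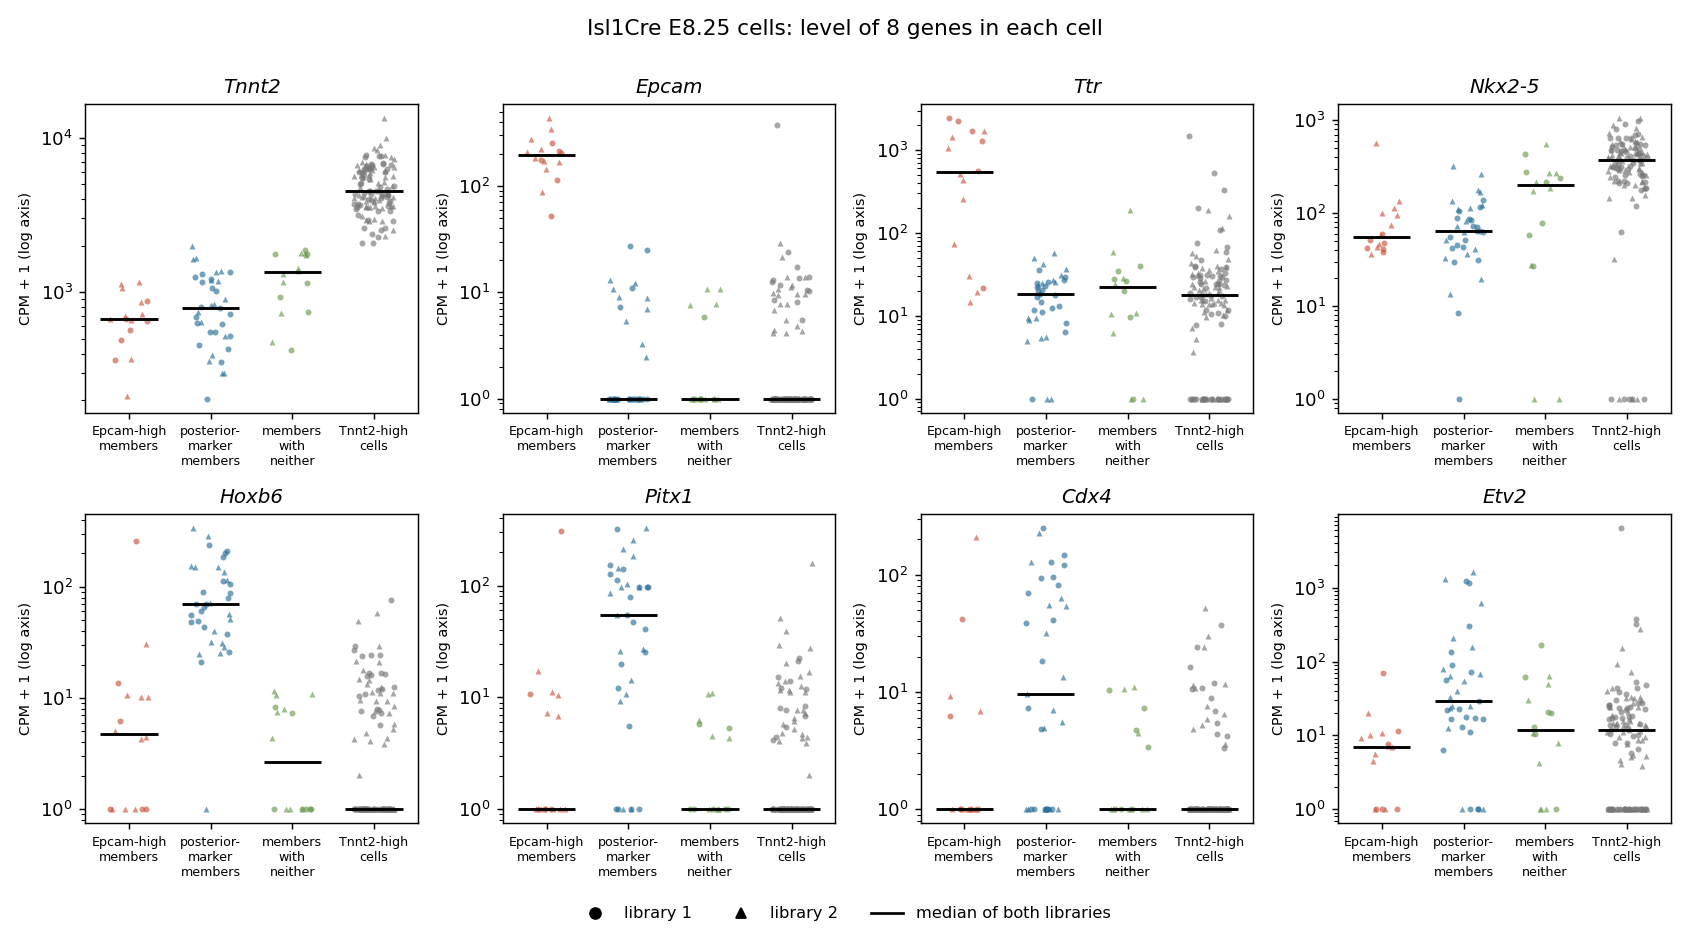
Level of 8 genes in each Isl1Cre E8.25 cell (CPM + 1, log axis; circles, library 1; triangles, library 2; bars, medians). From left to right are 16 Epcam-high members, 37 posterior-marker members, 16 members with neither and 119 Tnnt2-high cells; Ttr is high in most Epcam-high cells, and Nkx2-5 has a median of 199 CPM in members with neither, against 374 CPM in Tnnt2-high cells.

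These counts describe the rule and were not tested. The members were deeper than the Tnnt2-high cells, with a median of 159243 counts and 7376 genes per cell, against 92677 counts and 6503 genes in Tnnt2-high cells. When each cell was thinned to 10000 counts, which left out 2 members and 12 Tnnt2-high cells, Epcam passed its limit in 16 of 67 members, against 3 of 107 Tnnt2-high cells, and a posterior marker did in 35 of 67 members, against 18 of 107 Tnnt2-high cells. At that depth any count of a gene lies above both marker limits, so the thinned rule asked only for detection. Posterior-marker cells were also found on the other side of the Tnnt2 limit, in 18 of 119 Tnnt2-high cells before thinning. The Tnnt2 limit cut through a thinly filled range: the highest member had 1993 CPM of Tnnt2, the lowest Tnnt2-high cell had 2080 CPM, and 14 cells lay between 1500 and 2500 CPM, 9 of them members.

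A larger share of the members than of the Tnnt2-low cells of the other groups carried a posterior marker. The 3 marker genes came with the rule, chosen with earlier results of these data known, so this difference carries no test. In each other library at most 11.3% of the Tnnt2-low cells carried a posterior marker, against 63.6% and 52.8% in Isl1Cre E8.25. The Tnnt2-high cells of Isl1Cre E8.25 also carried one more often, at 14.8% and 15.5%, against at most 5.41% in each other library. Tnnt2-low cells with a posterior marker numbered 40 of 69 in Isl1Cre E8.25, against 7 of 137 in Isl1Cre E7.75, 8 of 111 in Nkx2-5Cre E7.75 and 3 of 30 in Nkx2-5Cre E8.25. Epcam-high cells were spread more widely: 16 of 69 Tnnt2-low cells in Isl1Cre E8.25, against 15 of 137 in Isl1Cre E7.75, 13 of 111 in Nkx2-5Cre E7.75 and 1 of 30 in Nkx2-5Cre E8.25. Neither kind was found among the 62 Tnnt2-low cells of the 4 later groups. Pooled, this allows a share of up to 4.84%, taken as 3 over the number of cells. By group the absence allows more: up to 18.8% of 16 cells in Isl1Cre E8.75 and 100% of 2 cells in Isl1Cre E9.25. In Nkx2-5Cre it allows up to 25% of 12 cells at E8.75 and 9.38% of 32 cells at E9.25. The members made up 35.1% and 38.3% of the kept cells of their libraries, against 82.4% and 72.9% Tnnt2-low cells in Isl1Cre E7.75 and 12.8% and 19.4% in Nkx2-5Cre E8.25. No cell name occurred in more than 1 library.

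**Figure D2:**
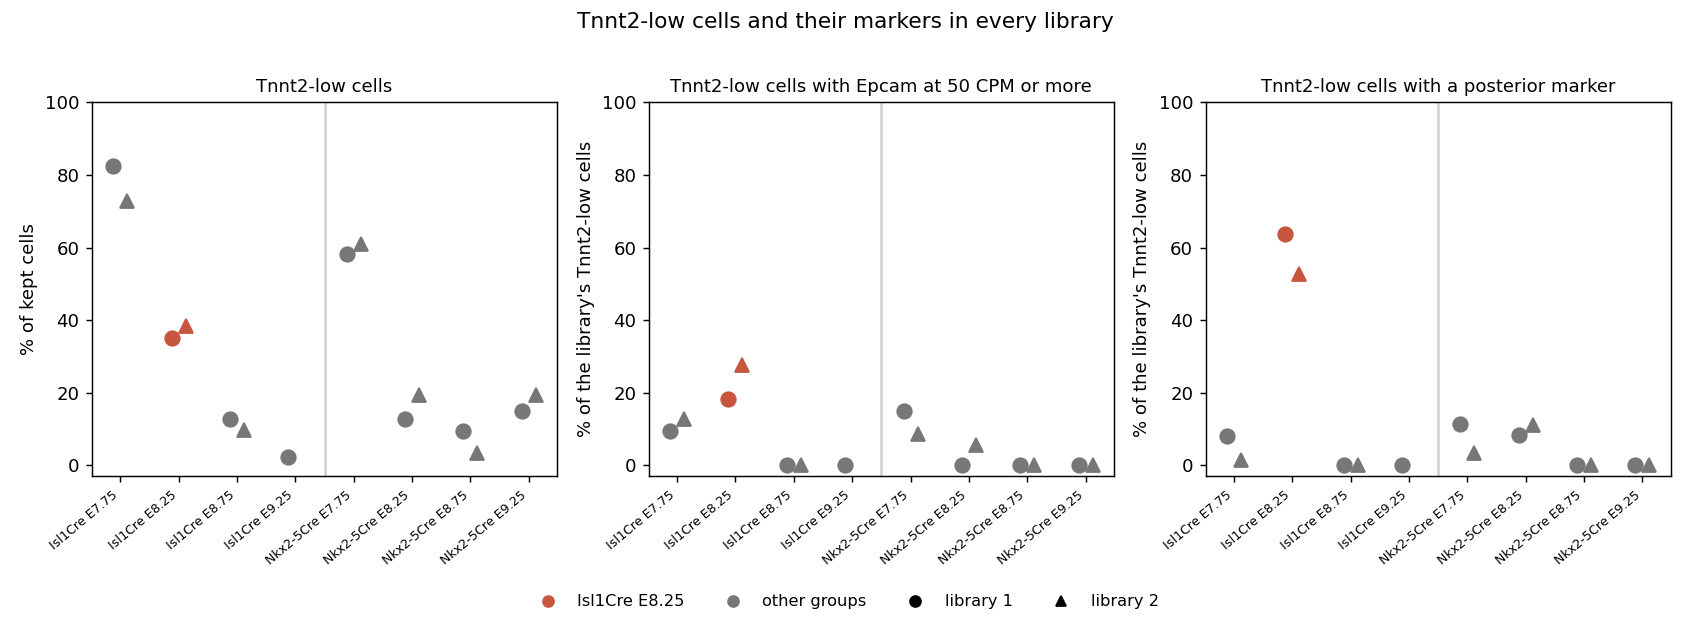
Share of Tnnt2-low cells among the kept cells of each library (left), and shares of these Tnnt2-low cells with Epcam at 50 CPM or more (middle) and with Hoxb6, Pitx1 or Cdx4 at 20 CPM or more (right). Each point is 1 library, with Isl1Cre E8.25 in red; its posterior-marker shares of 63.6% and 52.8% lie above those of the other 13 libraries, the highest of which is 11.3%.

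Most Epcam-high members had high levels of endoderm transcripts. Ttr, which encodes the thyroid hormone carrier transthyretin, ran from 13.7 to 2458 CPM over the 16 cells, with a median of 535 CPM. It was at 200 CPM or more in 11 of the 69 members, a limit chosen after the values were seen, and all 11 were Epcam-high. Spink1, a secreted protease inhibitor, had a median of 2172 CPM (0 to 7893 CPM), and Apela, a peptide ligand of the apelin receptor, had a median of 303 CPM (10.3 to 1059 CPM). Foxa2, a pioneer factor of endoderm, was detected in 10 of these 16 cells, against 3 of 37 posterior-marker members.

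Next to the posterior-marker members of the same libraries, 83 of 5628 genes with at least 20 CPM on the higher side were 4-fold or more higher in both libraries in the Epcam-high members (1.47%), and 29 were 4-fold or more lower (0.515%). Leaving out Epcam, which defined the cells, the list of endoderm markers held 9 of the higher genes among its 13 measured at this level, with a median log2 difference of 4.44, against -0.05 over all genes. Foxa1, a relative of Foxa2, averaged 122 and 62.8 CPM in Epcam-high members of libraries 1 and 2, against 0.46 and 0 CPM in posterior-marker members. Pyy, the gut hormone peptide YY, averaged 417 and 345 CPM in Epcam-high members, against 2.61 and 23.0 CPM in posterior-marker members. Epcam itself averaged 168 and 224 CPM in Epcam-high members, against 3.34 and 3.69 CPM in posterior-marker members. Because these subsets were cut from the same cells by 4 of the measured genes, these differences describe them and carry no test.

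The epithelial genes of the Epcam-high members were junction claudins, E-cadherin and membrane-bound proteases with their inhibitors. Of the 15 junction and keratin genes at this level other than Epcam, 9 were 4-fold or more higher, with a median log2 difference of 3.69. Cldn6, an embryonic tight-junction claudin, averaged 594 and 339 CPM in Epcam-high members, against 6.55 and 8.90 CPM in posterior-marker members. Cdh1, which encodes E-cadherin, averaged 44.3 and 56.9 CPM in Epcam-high members, against 3.00 and 2.92 CPM in posterior-marker members. Prss8, a membrane-anchored serine protease, averaged 58.6 and 84.2 CPM in Epcam-high members, against 2.16 and 0 CPM in posterior-marker members. Crb3, an apical polarity protein, averaged 97.3 and 65.6 CPM in Epcam-high members, against 2.22 and 2.13 CPM in posterior-marker members, and the membrane protease Tmprss2 averaged 88.9 and 65.2 CPM in Epcam-high members, against 0 and 1.17 CPM in posterior-marker members. Krt8 and Krt18, the simple-epithelial keratins, were present in every one of the 37 posterior-marker members, where Krt8 had a median of 1492 CPM, below the 5248 CPM of the Epcam-high members.

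Serum-protein genes, which are shared by visceral endoderm and liver, were 4-fold or more higher in 6 of 7 cases. Apom, an apolipoprotein of high-density lipoprotein, averaged 185 and 98.5 CPM in Epcam-high members, against 1.01 and 1.93 CPM in posterior-marker members. Fgb, the fibrinogen beta chain, averaged 72.3 and 90.3 CPM in Epcam-high members, against 0 and 1.85 CPM in posterior-marker members. Rbp4, the plasma carrier of retinol, averaged 1345 and 213 CPM in Epcam-high members, against 26.7 and 21.1 CPM in posterior-marker members, with a wide gap between the 2 libraries.

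The 16 Epcam-high cells were not alike. The 3 cells that also had a posterior marker had 20.6, 29.3 and 18.2 CPM of Ttr, at the level of the rest of the members. Their Epcam levels were 51.4, 182 and 210 CPM. The cell with 51.4 CPM of Epcam also held 257 CPM of Hoxb6 and 309 CPM of Pitx1. One further cell had 345 CPM of Epcam with 13.7 CPM of Ttr, 561 CPM of Nkx2-5 and 105 CPM of Isl1, an exception that was singled out after its values were seen. Shh, the hedgehog ligand of gut endoderm, reached 539 CPM in an Epcam-high cell of library 2; it was detected in 22 of 36 members of library 2, against 29 of 58 Tnnt2-high cells of that library, and in 1 of 33 members of library 1, at 2.41 CPM.

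Among the 29 genes lower in the Epcam-high members were 3 of 5 endothelial genes at this level, Flt4, Etv2 and Plvap, and 4 of 15 mesenchyme and matrix genes. Aplnr, the apelin receptor of mesoderm and vessels, averaged 0 and 3.39 CPM in Epcam-high members, against 92.0 and 60.5 CPM in posterior-marker members. Its ligand Apela ran the other way, with 213 and 498 CPM in Epcam-high members, against 34.9 and 20.2 CPM in posterior-marker members. Etv2, an ETS factor at the start of the blood vessel lineage, averaged 14.4 and 6.62 CPM in Epcam-high members, against 159 and 256 CPM in posterior-marker members. The ETS factor Ets1 averaged 17.8 and 9.02 CPM in Epcam-high members, against 120 and 116 CPM in posterior-marker members. The 4 mesenchyme and matrix genes were Cdh11, Pdgfrb, Col1a1 and Hapln1, and none of the list was 4-fold or more higher; Col1a1, a chain of type I collagen, averaged 9.69 and 3.44 CPM in Epcam-high members, against 48.1 and 66.7 CPM in posterior-marker members. The remaining genes that the naming rule took were Dqx1, Tmem69, Plac8, Omd, Fbn2, Bcat1 and the Hoxa-cluster RNA Hotairm1, all lower.

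**Figure D3:**
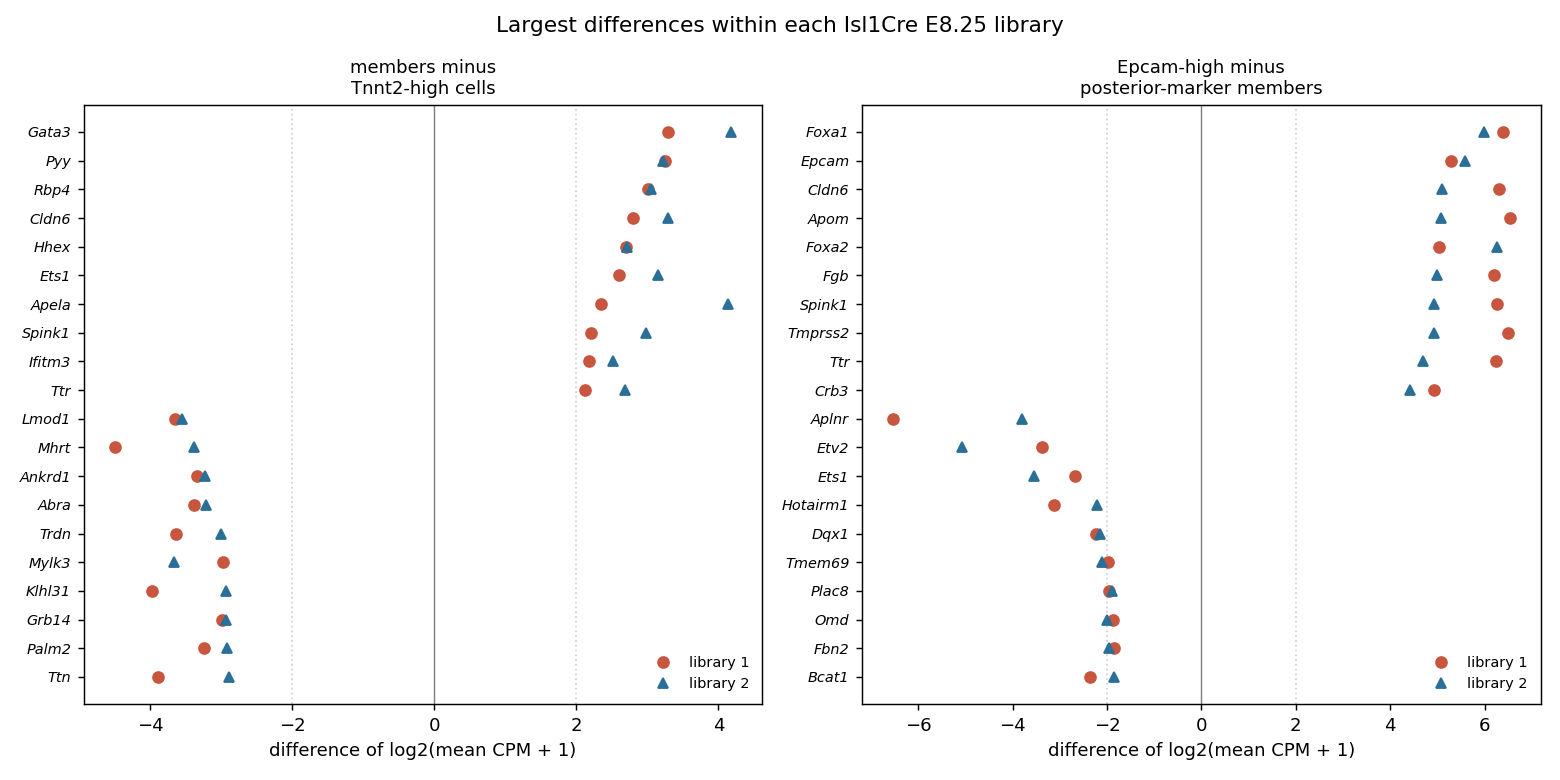
Difference of log2(mean CPM + 1) in each library for the named genes, members minus Tnnt2-high cells (left) and Epcam-high minus posterior-marker members (right). Circles are library 1, triangles are library 2 and dotted lines mark 4-fold; on the right the 10 higher genes all reach 4.41 in both libraries, and 5 of the 10 lower genes pass the 4-fold line in both.

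Some limb-field and lateral plate factors were higher in the posterior-marker members. Next to Tnnt2-high cells, 35 of 5640 genes were 4-fold or more higher in both libraries (0.621%) and 119 were 4-fold or more lower (2.11%). Of 15 posterior lateral plate and allantois genes at this level that did not define the cells, 5 were higher, and the median log2 difference was 1.34, against 0.06 over all genes. The 5 met the level of 20 CPM only through the posterior-marker members, so their share describes these cells and is not read as support. Hoxb6 averaged 91.9 and 98.4 CPM in posterior-marker members, against 5.99 and 5.96 CPM in Tnnt2-high cells. Pitx1 averaged 70.9 and 95.9 CPM in posterior-marker members, against 2.12 and 8.47 CPM in Tnnt2-high cells. Cdx4 averaged 54.0 and 34.5 CPM in posterior-marker members, against 2.17 and 2.79 CPM in Tnnt2-high cells.

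Genes that the rule did not use included Tbx4, a hindlimb and allantois T-box factor, which averaged 42.2 and 32.0 CPM in posterior-marker members, against 1.47 and 2.89 CPM in Tnnt2-high cells. Gata3, a GATA factor, averaged 45.2 and 51.0 CPM in posterior-marker members, against 5.85 and 4.81 CPM in Tnnt2-high cells. Gata3 was higher still in Epcam-high members, at 170.4 and 271 CPM. Prrx1 and Twist1, factors of limb and lateral mesenchyme, were also among the 5. Prrx1 averaged 25.7 and 45.1 CPM in posterior-marker members, against 3.45 and 5.15 CPM in Tnnt2-high cells. Twist1 averaged 27.6 and 38.9 CPM in posterior-marker members, against 2.62 and 7.96 CPM in Tnnt2-high cells. Bmp4, a ligand of extraembryonic and lateral mesoderm, fell short of 4-fold in library 1, with 53.2 and 54.6 CPM in posterior-marker members, against 17.8 and 10.9 CPM in Tnnt2-high cells. Going the other way were Vcam1 (9.39 and 1.44 CPM in posterior-marker members, against 49.8 and 25.6 CPM in Tnnt2-high cells) and, of the posterior second heart field list, Tbx5, a factor of the inflow end of the heart (9.28 and 8.06 CPM in posterior-marker members, against 46.0 and 67.9 CPM in Tnnt2-high cells).

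Hox genes made up 6 of the 35 higher genes, out of 8 Hox genes at this level. These 6 were Hoxa5, Hoxa9, Hoxb6, Hoxb7, Hoxc8 and Hoxc9, of which Hoxb6 defined the cells. All 6 met the 20 CPM level only through the posterior-marker members. Their share of the 8 was thus largely set by the choice of cells and genes and is not read as support. Among all 69 members, 16 of the 39 Hox genes averaged 5 CPM or more in both libraries and 6 were at 0 in every member. The 4 genes of paralogue group 9 summed to 118 and 133 CPM in posterior-marker members, against 15.5 and 12.0 CPM in Tnnt2-high cells. The sum of group 6 is mostly Hoxb6, a gene of the rule; Hoxa6 and Hoxc6, the other genes of the group, summed to 15.4 and 28.3 CPM in posterior-marker members, against 1.47 and 1.87 CPM in Tnnt2-high cells. Group 10 summed to 39.7 and 56.2 CPM in posterior-marker members, against 2.13 and 4.51 CPM in Tnnt2-high cells, so the cells reached into the posterior part of the clusters. Groups 12 and 13 were at 0 in posterior-marker members of both libraries. In Epcam-high members group 9 summed to 51.4 and 84.1 CPM, which lies between posterior-marker members and Tnnt2-high cells. These means include the 3 Epcam-high cells that also had a posterior marker, and their part was not tested. Group 10 was uneven in Epcam-high members, with 48.4 CPM in library 1 and 3.40 CPM in library 2.

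**Figure D4:**
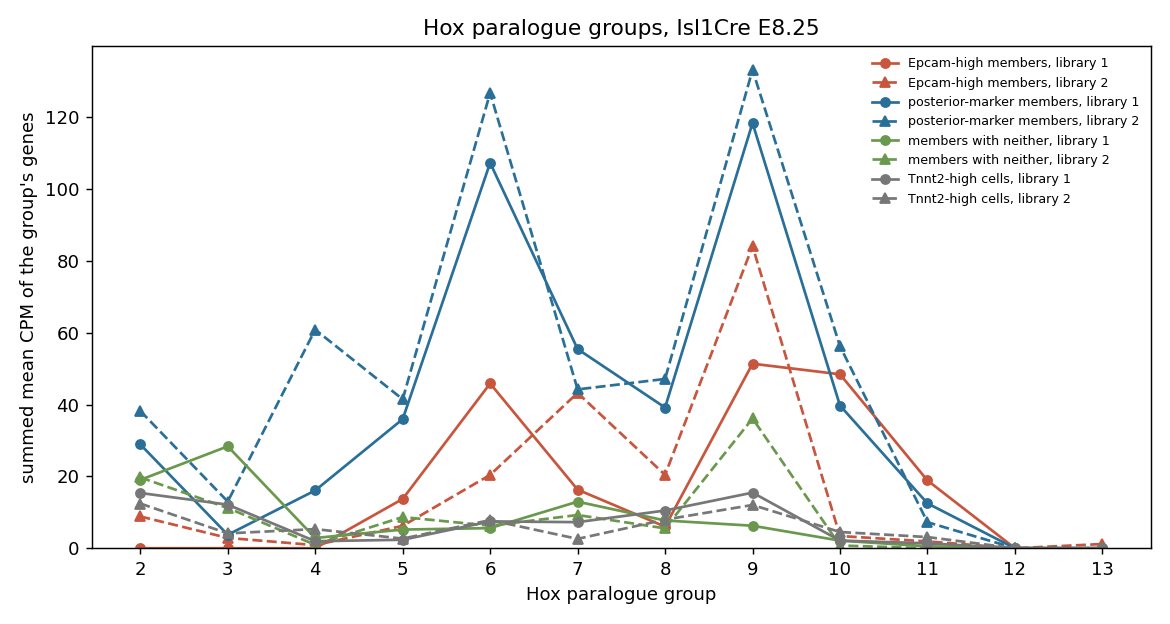
Summed mean CPM of the Hox genes of paralogue groups 2 to 13 in the 4 subsets of Isl1Cre E8.25 cells (solid lines with circles, library 1; dashed lines with triangles, library 2). Posterior-marker members lie above the other subsets at group 9 (118 and 133 CPM) and at group 6 (107 and 127 CPM), where Hoxb6, which defined these cells, supplies 91.9 and 98.4 CPM.

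Noncoding RNAs of the Hox clusters were higher in the posterior-marker members too. Hoxaas3 averaged 58.4 and 90.8 CPM in posterior-marker members, against 2.85 and 8.20 CPM in Tnnt2-high cells. Hotairm1, at the anterior end of the Hoxa cluster, averaged 80.2 and 60.1 CPM in posterior-marker members, against 15.1 and 11.9 CPM in Tnnt2-high cells. Hoxb5os averaged 52.1 and 52.1 CPM in posterior-marker members, against 8.33 and 5.09 CPM in Tnnt2-high cells. These RNAs overlap or adjoin Hox genes on the other strand and no source used here gives the strand setting of the counting, so their reads and those of the Hox genes cannot be told apart.

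Some genes outside the rule had higher medians in cells with more of the 3 posterior markers, and others did not. Of the 53 members with little Epcam, 16 had none of the 3 markers at 20 CPM, 10 had 1, 14 had 2 and 13 had all 3. The median of Hoxa10, which the rule did not use, was 0, 0, 3.02 and 75.9 CPM in these classes from none to 3. The median of Tbx4 was 0, 0, 1.40 and 25.0 CPM. No such unbroken order was seen for Gata3, with medians of 4.25, 0, 22.7 and 53.2 CPM, or for Hoxa9, with 0, 27.6, 9.87 and 62.9 CPM. Nor was it seen for Prrx1, with 0, 2.42, 27.0 and 18.1 CPM, or Foxf1, a factor of splanchnic mesoderm, with 40.5, 6.33, 39.6 and 67.8 CPM. Isl1 was detected in 8 of 16, 3 of 10, 6 of 14 and 11 of 13 cells, with a median of 35.8 CPM in the cells with all 3 markers. Aplnr ran the opposite way, with medians of 94.8, 70.5, 32.9 and 22.5 CPM. Depth varied between the classes as well, with median counts per cell of 133095, 95366, 196628 and 186769, and its part in these values was not tested.

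Etv2 was at 500 CPM or more in 5 of the 69 members, against 1 of 119 Tnnt2-high cells, and all 5 were posterior-marker members. Their Etv2 levels were 1219 and 1142 CPM in library 1 and 1639, 621 and 1321 CPM in library 2. Hoxb6 was at 68.5 CPM or more in each of the 5. Cdh5, the cadherin of differentiated endothelium, was between 0 and 4.57 CPM in them, while the vascular receptor Kdr ranged from 41.4 to 260 CPM. Tal1, a blood and vessel factor, reached 393 CPM in the first of these cells. The 500 CPM limit was chosen after the values were seen.

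Nkx2-5, the cardiac homeobox factor, was at 150 CPM or more in 10 of the 16 members with neither marker, 4 of 37 posterior-marker members and 1 of 16 Epcam-high members, against 106 of 119 Tnnt2-high cells. In the members with neither, set against Tnnt2-high cells, 15 of 5545 genes were 4-fold or more higher in both libraries (0.271%) and 63 were 4-fold or more lower (1.14%). The cardiomyocyte genes other than Tnnt2 had a median log2 difference of -2.01 in them, against -2.36 in posterior-marker members, and 7 of the 27 were 4-fold or more lower: Tnni3, Myh7, Myl3, Actn2, Nppb, Ldb3 and Nexn. Tnni3, the adult-type troponin I, averaged 24.2 and 20.5 CPM in members with neither, against 190 and 156 CPM in Tnnt2-high cells.

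The 15 genes higher in the members with neither held 0 of 9 posterior second heart field genes, whose median log2 difference was 1.57, 0 of 3 hedgehog receptors and response genes, 1 of 4 endothelial genes and 1 of 9 mesenchyme and matrix genes, and with a pseudocount of 10 only 1 gene reached 4-fold. Aplnr averaged 191 and 112 CPM in members with neither, against 12.5 and 14.8 CPM in Tnnt2-high cells. Hapln1, a hyaluronan-binding matrix protein, averaged 202 and 75.7 CPM in members with neither, against 32.3 and 14.7 CPM in Tnnt2-high cells. Foxf1, a hedgehog-responsive factor of splanchnic mesoderm, averaged 98.4 and 53.7 CPM in members with neither, against 26.2 and 13.1 CPM in Tnnt2-high cells, which is just under 4-fold in both libraries. Nr2f2, an inflow and venous nuclear receptor, averaged 67.5 and 60.0 CPM in members with neither, against 23.2 and 18.0 CPM in Tnnt2-high cells, also under 4-fold. Cmtm3, which passed 4-fold, and Marcks, 2810474O19Rik, Hsd11b2, Tagln2 and Gngt2, which did not in both libraries, were the other genes of the top 10. Plvap, an endothelial diaphragm protein, averaged 65.8 and 49.3 CPM in members with neither, against 6.83 and 7.77 CPM in Tnnt2-high cells, and Cdh5 was at 50 CPM or more in 2 of the 16.

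Taking all 69 members against Tnnt2-high cells, 27 of 5660 genes were 4-fold or more higher in both libraries (0.477%) and 96 were lower (1.7%). The rule used Tnnt2 in this contrast, so nothing is read from the shares. Gata3 averaged 65.8 and 105 CPM in the members, against 5.85 and 4.81 CPM in Tnnt2-high cells. Hhex, an early factor of liver, thyroid and vessel precursors, averaged 115 and 115 CPM in the members, against 16.9 and 16.7 CPM in Tnnt2-high cells. Ifitm3 averaged 68.7 and 69.3 CPM in the members, against 14.4 and 11.3 CPM in Tnnt2-high cells. Of 10 endoderm genes other than Epcam 7 were higher, with a median log2 difference of 2.65, against 0.08 over all genes. On the lower side were 14 of 27 cardiomyocyte genes other than Tnnt2, with a median of -2.29. Ankrd1, a stretch-responsive cardiac ankyrin protein, averaged 254 and 257 CPM in the members, against 2573 and 2422 CPM in Tnnt2-high cells, and Ttn, the giant sarcomere spring, averaged 126 and 345 CPM in the members, against 1884 and 2562 CPM in Tnnt2-high cells. Mhrt, an RNA that overlaps Myh7, Lmod1, Abra, Trdn, Mylk3, Klhl31, Grb14 and Palm2 were the other named genes and all were lower. Immediate-early and heat-shock genes of the dissociation list summed to 461 and 489 CPM in the members, against 1225 and 917 CPM in Tnnt2-high cells, though none of 8 passed 4-fold.

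Heart muscle transcripts were nonetheless present in every member. Tnnt2, Myl7 and Actc1 were detected in all 69, Epcam-high cells included, and Tnnt2 ran from 203 to 1993 CPM with a median of 804 CPM. The ratio of Myl7 to Tnnt2 in a cell had a median of 2.47 in Epcam-high members, 2.23 in posterior-marker members and 2.26 in members with neither, against 1.87 in Tnnt2-high cells. The ratio of Actc1 to Tnnt2 had a median of 0.98 in Epcam-high members, 1.00 in posterior-marker members and 0.93 in members with neither, against 1.09 in Tnnt2-high cells. Per the labels' protocols the cDNA of the cells was pooled before the last PCR cycles. Whether the low cardiac RNA in the epithelial and posterior cells is their own was not tested.

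The members were next compared with the Tnnt2-low cells of the same lineage 1 stage earlier. The 2 sides are not 1 population followed over time: 40 of 69 members carried a posterior marker, against 7 of 137 cells in Isl1Cre E7.75. Genes that rose or fell were higher or lower in Isl1Cre E8.25, and the part of the cell mixture was not tested. Over mean levels of each library, limma called 20 of 10915 genes at an adjusted p of 0.05 (0.183%), 12 higher (0.11%) and 8 lower (0.0733%) in Isl1Cre E8.25, while 719 had an unadjusted p under 0.05. The model used 13 libraries with at least 5 Tnnt2-low cells. Tbx4 rose, with 30.1 and 15.9 CPM in Isl1Cre E8.25, against 0 and 0 CPM in Isl1Cre E7.75 (limma adjusted p = 0.018), at least 163-fold higher when 3 counts over the E7.75 group are taken as the floor. It was the 1 call among 20 posterior lateral plate and allantois genes tested, whose median log2 difference was 0.38, while of 4 caudal genes limma called 0, with 1 at an unadjusted p under 0.05 and 0 by edgeR or DESeq2. Hoxa10, a posterior Hox gene, rose as well, with 17.7 and 21.0 CPM in Isl1Cre E8.25, against 0 and 0 CPM in Isl1Cre E7.75 (limma adjusted p = 0.020), at least 137-fold higher by the same floor. Of 15 Hox genes tested outside the rule, 1 passed with limma, 11 had an unadjusted p under 0.05, and edgeR and DESeq2 called 0, so the call of Hoxa10 ended with both. Both calls also ended without either Isl1Cre E7.75 library, and neither gene could be tested without an Isl1Cre E8.25 library. The median log2 difference of those 15 was 3.39, or 5.96 with the 8 genes absent from one group set at their bounds, against 0.02 over all genes. A gene can pass the filter of 5 CPM in 2 libraries through the group where it is high. Tbx4 and Hoxa10 passed it only through Isl1Cre E8.25. Their calls, their fold bounds and the Hox median lean towards a rise for that reason and are not read as support for posterior identity. A mean over cells does not separate more cells with a transcript from more transcript per cell; Tbx4 was detected in 29 of the 69 members.

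Early cardiac genes were higher too. Myh6, the alpha myosin heavy chain, averaged 189 and 364 CPM in Isl1Cre E8.25, against 41.6 and 34.3 CPM in Isl1Cre E7.75, a log2 difference of 2.67 ± 0.33 (SE; limma adjusted p = 0.0030). Myl2, the ventricular light chain, rose by 2.63 ± 0.39 on the log2 scale (limma adjusted p = 0.012) and Actc1, cardiac actin, by 1.38 ± 0.21 (limma adjusted p = 0.012). These were 3 of 27 cardiomyocyte genes tested, whose median log2 difference was 1.21. Actc1 was not called by edgeR or DESeq2. Tnnt2 itself, for which no test is given, averaged 846 and 986 CPM in Isl1Cre E8.25, against 583 and 546 CPM in Isl1Cre E7.75. Tnnt2-low cells made up 35.1% and 38.3% of the kept cells of the Isl1Cre E8.25 libraries, against 82.4% and 72.9% in Isl1Cre E7.75, the rest being Tnnt2-high, and the part of that difference in these transcripts was not tested.

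Among the other genes that rose, Ckb, the brain-type creatine kinase, averaged 216 and 301 CPM in Isl1Cre E8.25, against 39.0 and 37.5 CPM in Isl1Cre E7.75 (limma adjusted p = 0.0022). Col1a2, Enpp1, Cck, Slc38a4, Vdac1 and the ribosomal-protein pseudogene Rps15a-ps6 completed the 12. The genes that fell were Peg12, Pan3, 2900097C17Rik, Gm1821, Usp37, Cdv3, Apoe and Tubb5. Apoe, an apolipoprotein, averaged 341 and 362 CPM in Isl1Cre E8.25, against 966 and 915 CPM in Isl1Cre E7.75, a log2 difference of -1.52 ± 0.23 (SE; limma adjusted p = 0.012). Cdv3 fell by 1.55 ± 0.13 on the log2 scale (limma adjusted p = 0.00016). Rps15a-ps6 and Gm1821 may share reads with near-identical genes, so their counts are uncertain. Of 17 endoderm genes limma called 0, with 3 at an unadjusted p under 0.05 and 0 by edgeR or DESeq2. Of 22 endothelial genes limma called 0, with 1 at an unadjusted p under 0.05, 0 by edgeR and 1 by DESeq2. Without Isl1Cre E8.25 library 1 the count was 5, without its library 2 it was 2, and without Isl1Cre E7.75 library 1 or 2 it was 8 or 2; Cdv3 and Rps15a-ps6 passed in each of these 4 fits.

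Read beside this, the rule's own genes stood as follows in the 2 stages, with no test. Hoxb6 averaged 64.4 and 49.7 CPM in Isl1Cre E8.25, against 5.49 and 1.03 CPM in Isl1Cre E7.75. Pitx1 averaged 52.9 and 47.5 CPM in Isl1Cre E8.25, against 1.55 and 0 CPM in Isl1Cre E7.75, and Cdx4 averaged 34.8 and 23.2 CPM in Isl1Cre E8.25, against 0 and 0 CPM in Isl1Cre E7.75. Epcam overlapped between the stages, with 32.8 and 64.9 CPM in Isl1Cre E8.25, against 37.2 and 37.6 CPM in Isl1Cre E7.75.

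Against the Tnnt2-low cells of Nkx2-5Cre E8.25, a lineage marked by a cardiac homeobox driver, 234 of 10915 genes were called (2.14%), 64 higher (0.586%) and 170 lower (1.56%) in Isl1Cre E8.25, and 1443 had an unadjusted p under 0.05. Epcam and Tnnt2 are among the 64 but belong to the rule and are not read. This comparison shares the 2 Isl1Cre E8.25 libraries with the one between stages. The compositions differed: Epcam-high cells were 16 of 69 in Isl1Cre E8.25, against 1 of 30 in Nkx2-5Cre E8.25, and cells with Cdh5 at 50 CPM or more were 4 of 69 in Isl1Cre E8.25, against 16 of 30 in Nkx2-5Cre E8.25.

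Endoderm and epithelial genes were higher in Isl1Cre E8.25. Of 17 endoderm genes tested 8 rose, namely Apela, Cdh1, Cldn6, Foxa2, Krt8, Pyy, Spink1 and Ttr, and none fell; the median log2 difference was 3.21, against 0.07 over all genes. Spink1 averaged 676 and 539 CPM in Isl1Cre E8.25, against 7.07 and 7.26 CPM in Nkx2-5Cre E8.25, a log2 difference of 6.14 ± 0.64 (SE; limma adjusted p = 0.00050). Ttr averaged 263 and 172 CPM in Isl1Cre E8.25, against 0 and 0 CPM in Nkx2-5Cre E8.25 (limma adjusted p = 0.012), at least 297-fold higher, but the call ended without any 1 of the 4 libraries, as did those of Cdh1 and Foxa2. Without Isl1Cre E8.25 library 2 the call of Pyy ended too, while Apela, Cldn6, Krt8 and Spink1 passed in each of the 4 fits. Krt8 averaged 2368 and 2383 CPM in Isl1Cre E8.25, against 338 and 187 CPM in Nkx2-5Cre E8.25 (log2 difference 3.16 ± 0.43, limma adjusted p = 0.0020). Among cells with Epcam under 50 CPM in both groups, Apela and Krt8 still passed, Cldn6, Pyy, Spink1 and Ttr did not, and Cdh1 and Foxa2 were too low to be tested.

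Of 20 posterior lateral plate and allantois genes tested 1 rose, Tbx4, and the median log2 difference was 0.60; of 4 caudal genes limma called 0, with 2 at an unadjusted p under 0.05, 0 by edgeR or DESeq2 and a median of -0.32. Tbx4 averaged 30.1 and 15.9 CPM in Isl1Cre E8.25, against 0 and 0 CPM in Nkx2-5Cre E8.25 (limma adjusted p = 0.0049), at least 31.4-fold higher. Hoxa10 averaged 17.7 and 21.0 CPM in Isl1Cre E8.25, against 0 and 0 CPM in Nkx2-5Cre E8.25 (limma adjusted p = 0.0054). With Hoxa5, Hoxb7 and Hoxc10 it made 4 of 15 Hox genes tested that rose, and the median log2 difference of the 15 was 2.75. These Hox genes and Tbx4 also passed among cells with Epcam under 50 CPM, but edgeR called 1 of the 15 Hox genes and DESeq2 called 0. From the 2 groups alone neither Tbx4 nor any of the 4 Hox genes passed. All of them met the filter of 5 CPM in 2 libraries only through Isl1Cre E8.25. Their calls and the Hox median are therefore not read as support for posterior identity. Aldh1a2, the enzyme that makes retinoic acid in posterior mesoderm, averaged 32.4 and 6.91 CPM in Isl1Cre E8.25, against 0.36 and 0.53 CPM in Nkx2-5Cre E8.25 (limma adjusted p = 0.046), a call that ended without any 1 of the 4 libraries. Other named genes that rose were Amot, Rps15a-ps6, Rab33b, Lin28a, Slc2a3, Tfrc and Bex1; Lin28a, an RNA-binding protein of early embryonic cells, averaged 355 and 322 CPM in Isl1Cre E8.25, against 67.9 and 97.2 CPM in Nkx2-5Cre E8.25 (limma adjusted p = 0.013).

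The lower genes included 12 of 22 endothelial genes, whose median log2 difference was -2.65; Gngt2, Plvap and Tek passed whichever of the 4 libraries was left out, and Pecam1, Sox18 and Tie1 passed in none of these fits. The list summed to 790 and 459 CPM in Isl1Cre E8.25, against 2422 and 2630 CPM in Nkx2-5Cre E8.25, and none of its genes was at 0 in all 4 libraries. Plvap averaged 45.9 and 29.5 CPM in Isl1Cre E8.25, against 605 and 304 CPM in Nkx2-5Cre E8.25 (log2 difference -3.58 ± 0.49, limma adjusted p = 0.0020). Ramp2, the adrenomedullin receptor partner, averaged 60.1 and 26.9 CPM in Isl1Cre E8.25, against 556 and 397 CPM in Nkx2-5Cre E8.25 (log2 difference -3.58 ± 0.41, limma adjusted p = 0.00073). Nfatc1, a factor of the endocardium, averaged 9.84 and 2.67 CPM in Isl1Cre E8.25, against 75.3 and 145 CPM in Nkx2-5Cre E8.25 (limma adjusted p = 0.0042). Icam2, Exoc3l4, Gngt2, Igf1, Ecscr, Sat1, Gja4 and Esam were also named and fell. The calls of Gja4, Slc2a3 and Bex1 ended without any 1 of the 4 libraries, while Lin28a passed in 1 of these fits and Nfatc1 in 2. How far these differences come from the unlike numbers of Cdh5 cells was not tested.

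**Figure D5:**
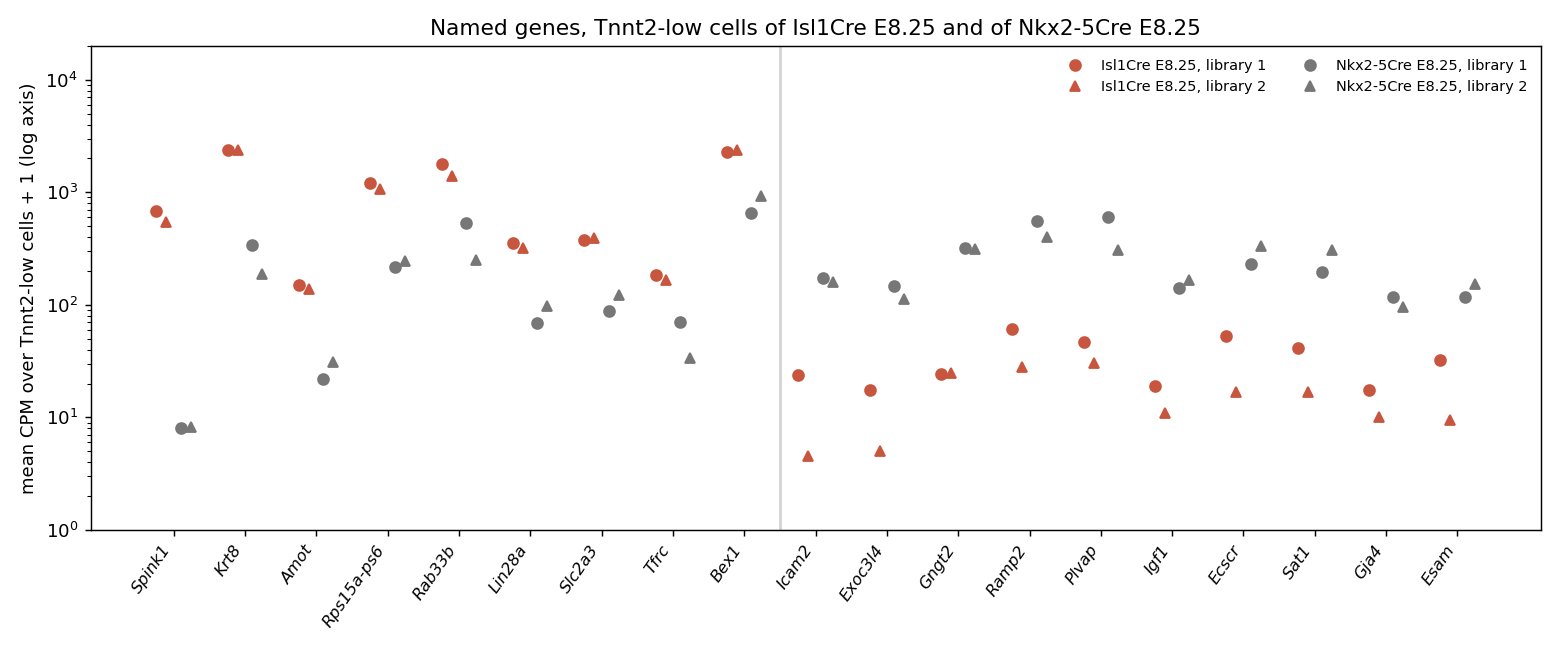
Mean CPM + 1 over the Tnnt2-low cells of each library (log axis) for 19 named genes of the comparison with Nkx2-5Cre E8.25. Red points are the 2 Isl1Cre E8.25 libraries and grey points the 2 Nkx2-5Cre E8.25 libraries; the 9 genes left of the line were higher and the 10 right of it lower in Isl1Cre E8.25, and the groups do not overlap for any of them.

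Some matrix genes fell, though the median log2 difference of the 23 mesenchyme and matrix genes was 0.14 and that of the 14 basement membrane genes was -0.18, against 0.07 over all genes. Vim, the mesenchymal intermediate filament, averaged 445 and 312 CPM in Isl1Cre E8.25, against 1826 and 1461 CPM in Nkx2-5Cre E8.25 (log2 difference -2.20 ± 0.18, limma adjusted p = 5.2e-05). Fbn1, Fn1, Hapln1 and Sparc made this 5 of 23 mesenchyme and matrix genes, and Col4a1, Col4a2 and Sparc were 3 of 14 basement membrane genes. Apoe averaged 341 and 362 CPM in Isl1Cre E8.25, against 1116 and 1288 CPM in Nkx2-5Cre E8.25 (limma adjusted p = 0.00090). Of 27 cardiomyocyte genes limma called 0, with 7 at an unadjusted p under 0.05, 2 by edgeR and 5 by DESeq2. Of 24 genes of the G2 and M phases limma called 0, with 3 at an unadjusted p under 0.05, 0 by edgeR and 1 by DESeq2. The count of 234 was 71 without Isl1Cre E8.25 library 1, 38 without its library 2, and 90 or 125 without Nkx2-5Cre E8.25 library 1 or 2.

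The Epcam-high cells alone could be compared between the stages, with 16 cells in Isl1Cre E8.25 (6 and 10) and 15 in Isl1Cre E7.75 (7 and 8). In 6 libraries, limma called 17 of 9866 genes (0.172%), 9 higher (0.0912%) and 8 lower (0.0811%), with 1085 at an unadjusted p under 0.05. TMM scaling moved every log2 difference of this comparison by -0.18. Without it 35 genes passed, 23 higher and 12 lower. One endoderm gene of 21 rose, Hhex, with 324 and 286 CPM in Isl1Cre E8.25, against 44.7 and 32.4 CPM in Isl1Cre E7.75 (log2 difference 2.79 ± 0.42, limma adjusted p = 0.014). The median of the 21 was -0.05, against 0.12 over all genes, and of 24 epithelial genes limma called 0, with 5 at an unadjusted p under 0.05 and 0 by edgeR or DESeq2. The call of Hhex ended without either Isl1Cre E8.25 library and without Isl1Cre E7.75 library 2.

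Trh, the precursor of thyrotropin-releasing hormone, fell, with 19.6 and 0 CPM in Isl1Cre E8.25, against 931 and 706 CPM in Isl1Cre E7.75 (log2 difference -7.62 ± 0.92, limma adjusted p = 0.0026). Emb, an adhesion protein of early endoderm and other embryonic cells, averaged 748 and 864 CPM in Isl1Cre E8.25, against 4273 and 3347 CPM in Isl1Cre E7.75 (log2 difference -2.41 ± 0.22, limma adjusted p = 0.00028). Sall4, a zinc-finger factor of pluripotent and early embryonic cells, averaged 102 and 225 CPM in Isl1Cre E8.25, against 713 and 706 CPM in Isl1Cre E7.75 (limma adjusted p = 0.028), but edgeR and DESeq2 did not call it and the call ended without any 1 of the 4 libraries. Fhl1, Gm1821, Rdx, Slc16a1 and Cdv3 were the other genes that fell. Besides Hhex, the genes that rose were Myh6, Actc1, Acta2, Myl7, Xaf1, Tsc22d1, Ddt and Rps15a-ps6.

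Cardiac muscle genes were 4 of these 9, of 27 tested. Actc1 averaged 710 and 681 CPM in Isl1Cre E8.25, against 65.4 and 104 CPM in Isl1Cre E7.75 (log2 difference 2.88 ± 0.35, limma adjusted p = 0.0026). Myl7, the atrial light chain, averaged 1370 and 1833 CPM in Isl1Cre E8.25, against 343 and 357 CPM in Isl1Cre E7.75 (limma adjusted p = 0.017). Tnnt2, untested, averaged 602 and 754 CPM in Isl1Cre E8.25, against 80.0 and 208 CPM in Isl1Cre E7.75. The E8.25 libraries also held the larger share of Tnnt2-high cells, given above, and its part in these levels was not tested. Of 7 Hox genes limma called 0, with 4 at an unadjusted p under 0.05, 0 by edgeR and 1 by DESeq2. Their median log2 difference was 3.32, or 2.85 with the 4 genes absent from one group at their bounds. Genes could pass the filter through the group where they were high, so this median is not read as support. The count of 17 fell to 2 without either Isl1Cre E8.25 library and to 9 without Isl1Cre E7.75 library 2, and it was 43 without Isl1Cre E7.75 library 1; Emb and Trh passed in each of these fits.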

How the data were processed

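Single cells were sequenced with a modified Smart-seq2 protocol that captures 3' ends, whose primer carries a cell barcode and a molecular identifier of 8 nt each. The authors deposited CPM values for each gene in each cell. Per the submitters' processing notes the build was mm10, and TopHat2 2.0.12, HTSeq and CASAVA 1.8 were used. Parameters, strand and whether reads or molecules were counted are not given in the sources used here. All 23154 genes of the 15 files were used, and none of them was mitochondrial. Whole counts were recovered from the steps of the deposited CPM values (100% of the values up to 20 steps were whole within 0.1 step). Kept cells of a library summed to 8167445 to 38321215 counts; the Isl1Cre E8.25 libraries held 10997442 and 18568887. No doublet caller was run, and no annotation of cell types was used.

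Tests used limma 3.58.1 (R 4.3.3) on log2(mean CPM over the cells of a library + 1) after TMM scaling, with a trended variance, 1 mean per group, genes at 5 CPM or more in at least 2 libraries and a Benjamini-Hochberg adjusted p of 0.05, so fold changes of low genes are understated. Group means have 2 libraries each. Splits of cells within Isl1Cre E8.25 are described by the difference in each library, with no test. Alternatives included edgeR 4.0.16 and DESeq2 1.42.0 on summed recovered counts. Replicate numbers did not pair libraries. Genes were named by a rule: the 10 largest changes each way among called genes whose groups do not overlap and whose log2 level averages 5 or more (within Isl1Cre E8.25, the 10 largest each way in the weaker library at 50 CPM or more), and members of 27 lists; 2 such genes are not reported here. The members and lists were chosen with earlier results of these data known. Gene positions are RefSeq's on GRCm38/mm10. In the Tnnt2-low cells of both Isl1Cre E8.25 libraries Xist was detected and the Y-linked Ddx3y and Eif2s3y were at 0. In those of Nkx2-5Cre E8.25 Xist averaged 33.1 and 86.6 CPM, with Ddx3y at 1.24 and 10.5 CPM and Eif2s3y at 4.12 and 1.80 CPM. Xist and Y-linked transcripts were thus both found in each Nkx2-5Cre E8.25 library. Whether these libraries held cells of more than 1 embryo was not tested. In those of Isl1Cre E7.75 Xist averaged 54.1 and 106 CPM, with Ddx3y at 0.71 and 0 CPM. The part of sex in the comparisons was not tested. Python 3.11.15 with numpy 2.4.6, pandas 2.3.3, scipy 1.17.1 and matplotlib 3.10.9 was used.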

Additional observations from a re-analysis of the deposited data

How the results depend on the processing

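Of 69 members 41 had Tnnt2 under 1000 CPM, and a single library held 33 to 36 members, 6 to 10 Epcam-high ones and 19 to 21 with a posterior marker. The 40 cells with a posterior marker became 35 at 50 CPM, 28 with at least 2 of the 3 genes, 35 after thinning and 37 from at least 2 counts. In thinned cells any count of a gene passed the limit. With a pseudocount of 10 in place of 1 the higher and lower counts were 7 and 41 for members against Tnnt2-high cells, 38 and 3 for Epcam-high against posterior-marker members, 4 and 48 for posterior-marker members against Tnnt2-high cells, and 1 and 21 for members with neither. From 1 library alone, which by construction passes more genes, these pairs were 78 to 107 and 142 to 195, 304 to 314 and 175 to 213, 90 to 145 and 187 to 248, and 127 to 209 and 218 to 256. Thinning gave 136 and 95 for Epcam-high against posterior-marker members and 35 and 159 for members with neither, and Tnnt2 under 1000 CPM gave 159 genes lower in members.

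Between stages, 20 calls became 35 with a pseudocount of 10, 55 with no filter, 38 by edgeR, 190 by DESeq2, 554 from the 2 groups alone and 45 with 3000 genes per cell, and 2 to 8 when a library was left out. Between lineages, 234 became 358 by edgeR, 785 by DESeq2, 76 from the 2 groups alone and 38 to 125 when a library was left out. For Epcam-high cells, 17 became 33 with a pseudocount of 10, 1 with no filter, 55 with a filter of 20 CPM, 35 without scaling, 41 by edgeR, 160 by DESeq2, 9 from the 2 groups alone and 2 to 43 when a library was left out. Where a group kept 1 library, its spread was taken from the other groups. The cause of these moves was not tested. With the replicate number as a block the 3 counts were 24, 200 and 78, but the numbers do not pair the libraries (correlations 0.04, 0.02 and 0.04). Alternatives restricted to Epcam under 50 CPM, and those for the comparisons of marker subsets within Isl1Cre E8.25, were chosen after seeing the data. The 93 named genes gave 1434 alternative values, of which 1081 stayed on the same side of the threshold, 353 did not and 0 changed sign. Low genes and subsets of 6 to 10 cells in a library are limited by depth and by having 2 libraries per group.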
